A study of Mus musculus with 6 samples.

Results

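Hedgehog signalling carries a secreted protein signal from one cell to the next, and the report concerns 9 genes of that pathway in mouse pancreas and in pancreatic tumours. They were listed by symbol: the ligands Shh and Ihh, the receptor Ptch1, the ligand-binding antagonist Hhip, the signal transducer Smo, the inhibitor Sufu and the transcription factors Gli1, Gli2 and Gli3. A gene was taken where its symbol had a row in either of the authors' deposited comparison tables, of tumours against normal pancreas. Of the 9 genes, 8 had such a row, out of 27179 genes counted, with 6 in the H7 table and 8 in the UNKC table. Shh had a row in neither table and is described from its counts alone.

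RNA sequencing covered 6 libraries in 3 groups of n = 2. Normal pancreas was the whole organ of C57BL/6 mice. H7 tumours grew from PANC02-H7 cells and UNKC tumours from UN-KC-6141 cells, both mouse pancreatic carcinoma lines injected into the pancreas of C57BL/6 mice and dissected after 20 days. No mouse was treated, and the labels give neither age nor sex nor whether the replicates of a group came from separate animals, so the p-values measure the spread between these samples, which may be technical. Each tumour group stands for a single cell line, and a dissected tumour holds host cells as well as the injected ones. In such bulk samples, fewer cells of a type and less RNA per cell cannot be told apart.

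In cells without ligand, the receptor Ptch1 keeps the membrane protein Smo off, and Gli2 and Gli3 are processed into repressors or held back by Sufu. Ligand binding to Ptch1 releases Smo at the primary cilium, and the Gli factors then switch on target genes, among which Gli1, Ptch1 and Hhip are themselves regulators of the pathway and are widely used as its readouts. In the adult pancreas the pathway is known to be little active, and in pancreatic carcinoma tumour cells are known to secrete ligand to which stromal fibroblasts respond.

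The promoters of Ptch1 and Hhip are shown because these receptors of the ligand took opposite sides between the tumour types. Each run is the 250 bases before a RefSeq transcription start (GRCm38.p6), read 5′ to 3′ on the gene's strand, with CpG dinucleotides in capitals. Ptch1 lies on the minus strand at chr13:63565736-63565985 and Hhip on the minus strand at chr8:80058009-80058258. The Ptch1 run lies inside the span of that gene (63508328 to 63573460), so it need not be the only promoter of Ptch1.
Ptch1: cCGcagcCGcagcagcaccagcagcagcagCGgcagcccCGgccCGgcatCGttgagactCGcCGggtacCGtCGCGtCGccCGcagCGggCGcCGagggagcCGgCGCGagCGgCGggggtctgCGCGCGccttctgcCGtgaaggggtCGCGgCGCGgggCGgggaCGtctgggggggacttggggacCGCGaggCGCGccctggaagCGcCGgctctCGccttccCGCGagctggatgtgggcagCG
Hhip: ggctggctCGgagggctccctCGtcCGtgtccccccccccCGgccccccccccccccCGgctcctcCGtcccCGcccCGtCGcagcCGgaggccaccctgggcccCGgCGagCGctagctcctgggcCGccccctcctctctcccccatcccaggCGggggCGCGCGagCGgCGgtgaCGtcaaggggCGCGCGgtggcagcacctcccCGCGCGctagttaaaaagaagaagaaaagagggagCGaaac
The Ptch1 promoter held 41 CpG dinucleotides and that of Hhip 28, against a median of 6 over all 32851 RefSeq promoters of this length. Those of Gli3 (34), Ihh (24), Gli2 (22), Smo (15) and Sufu (8) also lay above the median. A high count is thus not particular to Ptch1 and Hhip. The GLI-binding motif GACCACCCA was searched first, on both strands and with no other motif, and the CpG display was chosen after it gave no match. Promoters were at hand for 7 of the 9 genes (Ihh, Ptch1, Hhip, Smo, Sufu, Gli2 and Gli3). None of the 7 held the motif exactly or with 1 mismatch, and of all promoters 0.225% held it exactly and 5.79% with at most 1 mismatch. At such low shares, no match among 7 promoters is common for any genes, so nothing about these genes follows from it.

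The tumour libraries held 33332516 to 40507546 reads counted in genes and the normal libraries 12077320 and 8204225. Ribosomal RNA took 86.4% and 85.0% of the normal reads and 20.1% to 27.8% of the tumour reads, so that 780779 and 699044 normal reads remained outside ribosomal RNA, Lars2 and 1 unnamed gene. Levels are CPM, read counts scaled to a common library size, here with trimmed-mean (TMM) factors of 0.179 and 0.256 in the normal and 2.07 to 2.23 in the tumour libraries. With total counts as the scale, the median gene moved from 0.34 to 3.61 log2 units above normal in H7 and from 0.42 to 3.77 in UNKC tumours, so changes against normal pancreas are relative to the TMM scale. Acinar markers summed to 7655 and 8202 CPM in normal pancreas and to 3.61 to 26.4 in the tumours, with 1 of 8 markers at 0 in the second UNKC library. Skeletal muscle markers summed to 598 CPM in the second H7 and 2130 in the second UNKC library, against 1.55 to 10.4 in the other libraries, where 1 to 5 of the 9 markers had no read. Fibroblast markers summed to 2515 and 4173 CPM in UNKC tumours, 958 and 1806 in H7 tumours and 373 and 569 in normal pancreas, with none of the 10 markers at 0 in any library.

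Of the 8 genes that passed the low-count filter, H7 tumours had higher Ptch1 and Smo and lower Gli2 than normal pancreas, and UNKC tumours had higher Hhip and Smo and lower Gli1. Between the tumours, H7 had higher Ptch1, Smo and Gli1, and UNKC had higher Hhip and Gli2. A gene was called where its adjusted p in edgeR's quasi-likelihood test over all 16306 tested genes was under 0.05. Against normal pancreas, 2 of 8 were called higher and 1 lower in H7 tumours, where 29.6% of all genes were called higher and 21.9% lower. The counts in UNKC tumours were also 2 higher and 1 lower of 8, beside 29.1% and 19.3% of all genes. Those counts lie near the background and show nothing particular to the 9 genes. In H7 against UNKC tumours, 3 of 8 were called higher and 2 lower, beside 7.14% and 11.1% of all genes. Leaving out the first H7 library left 1 call among the 8, and leaving out the second H7 or the first UNKC library left 2. In H7 against normal pancreas, 1 of the 3 calls was left without the first H7 library. Without both tumour libraries high in muscle genes, which leaves 1 residual degree of freedom, edgeR called 0 of 15969 genes between the tumours, with 2312 at an unadjusted p under 0.05, and the 5 differences kept their signs. The median log2 difference of the 8 genes was 0.79 for H7 against normal, -0.03 for UNKC against normal and 0.05 between the tumours, beside 0.34, 0.42 and -0.02 over all tested genes. The first median includes Hhip and Ihh, which give no fold in H7 against normal pancreas, and the second includes Ihh, which gives none in UNKC. With only the H7 and normal libraries fitted, 6 of the genes were tested, without Hhip and Ihh. Their median was -0.33, beside 0.28 over all genes of that fit. Both comparisons with normal pancreas share its libraries. The genes were chosen by symbol and selected on having at least 10 fragments in a deposited table, and Hhip and Ihh passed the filter only through the UNKC libraries, so all these counts are a description.

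**Figure D1:**
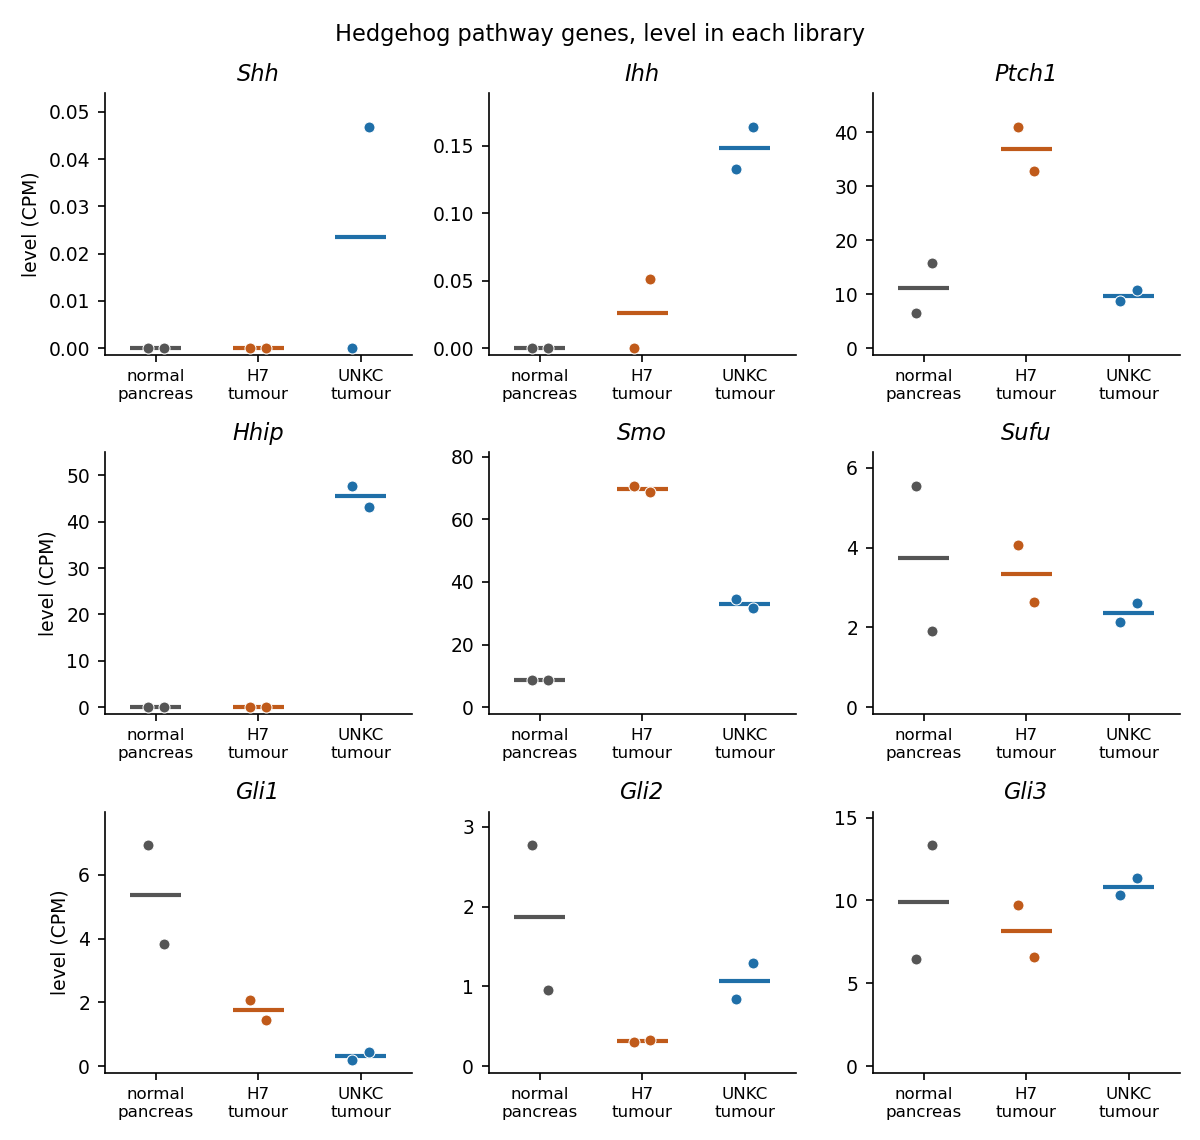
Level of each of the 9 genes in CPM (vertical axis, linear from 0, a separate scale in each panel) by group, with points for the libraries and a bar for the mean of n = 2. Hhip stands at 47.8 and 43.2 CPM in UNKC tumours and at or near 0 elsewhere, Ptch1 and Smo are highest in H7 tumours on this scale, and the normal points of Ptch1, Sufu, Gli2 and Gli3 lie far apart.

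The ligands Shh and Ihh, secreted proteins that bind Ptch1, were close to absent. Shh (gene ID 20423) had 4 reads in the second UNKC library and 0 in the other 5. A count of 0 allows up to 3 read pairs per group, which is 1.41 CPM in normal pancreas but 0.0408 in H7 and 0.0342 in UNKC tumours. The shallow normal libraries thus set the weakest limit, and a level of Shh below it was not detectable there. Ihh (gene ID 16147) had 0 and 4 reads in H7, 0 and 0 in normal and 12 and 14 in UNKC libraries, or 0.133 and 0.164 CPM in UNKC tumours. Ihh in UNKC was 5.44 times that in H7 tumours, with a 95% counting interval of 1.23 to 49.6 that covers counting error only (edgeR adjusted p = 0.19). Neither tumour gives a fold against normal pancreas for Ihh, since all of these values lie under the limit of the normal libraries.

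The table threshold decided the membership of these low genes. The authors' tables list genes with at least 10 fragments over 4 libraries, and Ihh was just inside with 13 fragments in the UNKC table. Just outside were Hhip with 10 reads and Ihh with 4 reads over the H7 and normal libraries, and Shh with 4 reads over the UNKC and normal libraries, where 2 reads make about 1 fragment.

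Ptch1 (gene ID 19206), the receptor that holds Smo off, had 2831 and 2560 reads in H7, 14 and 33 in normal and 780 and 923 in UNKC libraries. These were 41.0 and 32.9 CPM in H7 tumours, 6.48 and 15.7 in normal pancreas and 8.64 and 10.8 in UNKC tumours. Both H7 libraries lay above all 4 others, and the UNKC libraries fell between the normal ones. Ptch1 was higher in H7 tumours by 1.74 ± 0.38 (log2, SE) against normal pancreas (edgeR adjusted p = 0.011) and by 1.92 ± 0.34 against UNKC tumours (edgeR adjusted p = 0.0146). UNKC tumours differed from normal pancreas by -0.19 ± 0.38 (edgeR adjusted p = 0.70), a sign that turned to 3.10 with total counts as the scale and to 0.62 without the second normal library. Without the first H7 library, the adjusted p was 0.061 against normal pancreas and 0.13 against UNKC tumours. The latter call was also lost without the second H7 library (0.073), without the first UNKC library (0.096) and with total counts as the scale (0.053).

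Hhip (gene ID 15245), a membrane-bound protein that sequesters Hedgehog ligands, had the sharpest split among the 9 genes. Its reads were 4311 and 3691 in UNKC, 4 and 6 in H7 and 0 and 0 in normal libraries, that is 47.8 and 43.2 CPM in UNKC tumours and 0.0579 and 0.077 in H7 tumours. UNKC libraries exceeded every other library. The level was 669 times that of H7 tumours, with a 95% counting interval of 287 to 2063 on the 5 read pairs of H7 (edgeR log2 difference of H7 against UNKC -9.34 ± 0.26, adjusted p = 0.000313). Against normal pancreas it was at least 32.3-fold higher, from the limit of 3 read pairs over that group (edgeR adjusted p = 0.000174). Leaving out any 1 of the 6 libraries kept both calls. H7 against normal gives no fold, because the H7 level is below the limit of the normal libraries.

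Smo (gene ID 319757), the transducer that Ptch1 restrains, was raised in both tumour types. Its levels were 70.8 and 68.8 CPM in H7, 34.5 and 31.6 in UNKC and 8.79 and 8.59 in normal libraries, from 19 and 18 reads in the latter. The groups did not overlap, and in every group its replicates were closer in ratio than those of Ptch1, Sufu or Gli3. H7 tumours had 8.02 times the normal level (SE 0.15 on the log2 scale, edgeR adjusted p = 0.000136) and UNKC tumours 3.81 times (1.93 ± 0.15 in log2, edgeR adjusted p = 0.000293). Both folds rest on 10 and 8 fragments in the normal libraries. Their SE, from reads with both mates counted, is narrower than the counting error of so few fragments, so SE and p-values overstate the precision. With fragment counts, H7 exceeded normal pancreas by 2.83 in log2 (edgeR adjusted p = 0.00086). H7 exceeded UNKC tumours by 1.08 ± 0.13 (edgeR adjusted p = 0.00383), which was 0.063 without the first H7 library.

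Sufu (gene ID 24069), which binds Gli proteins in the cytoplasm, passed the test in none of the 3 comparisons. Its levels were 4.07 and 2.63 CPM in H7, 5.56 and 1.91 in normal and 2.14 and 2.60 in UNKC libraries, so that the normal libraries spanned all others. H7 and UNKC tumours differed from normal pancreas by -0.16 ± 0.54 and -0.66 ± 0.55 and from each other by 0.50 ± 0.39 (log2, SE, edgeR adjusted p = 0.82, 0.36 and 0.46). These intervals are wide, and the first 2 turn positive with total counts as the scale. Over the H7 and normal libraries Sufu had 502 reads but 356 fragments, a lower ratio than the median of 1.98 to 2.00 over genes, so part of its read pairs was counted with 1 mate alone.

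**Figure D2:**
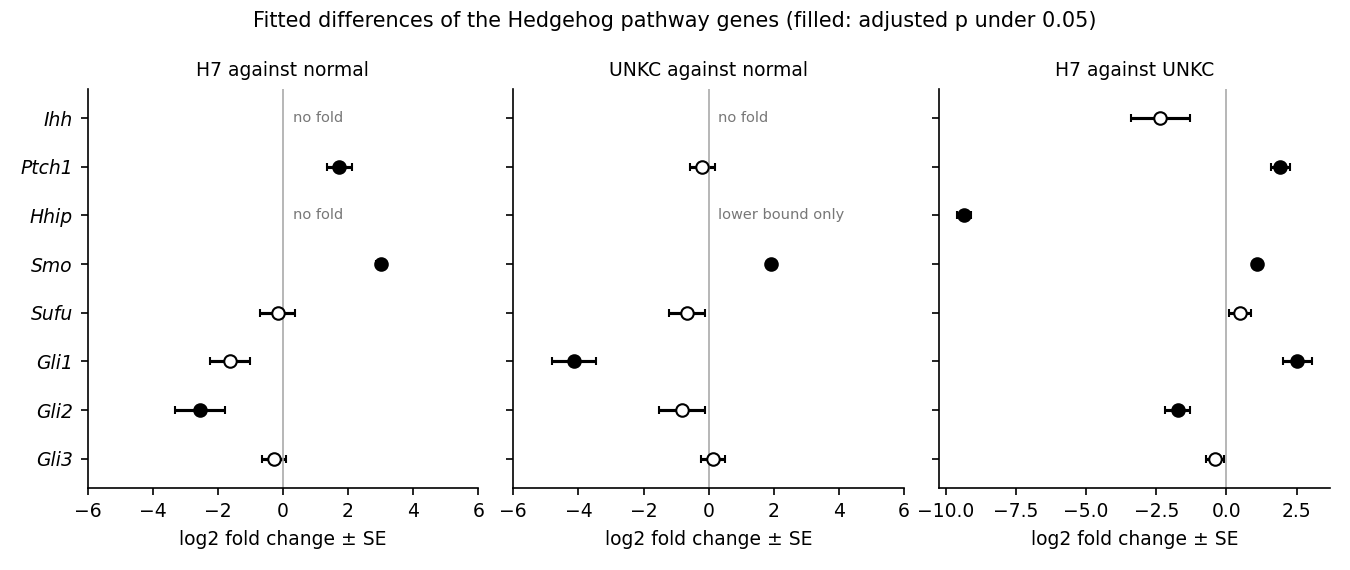
Log2 fold change with SE (horizontal axes, a wider range in the third panel) of the 8 tested genes in the 3 comparisons, from edgeR with all 6 libraries (filled: adjusted p under 0.05). Ptch1, Smo and Gli1 lie above 0 and Hhip (-9.34) and Gli2 below 0 in H7 against UNKC tumours. Folds under the counting limit are left out, and Hhip in UNKC against normal pancreas, called higher, is marked as a lower bound only (at least 32.3-fold). The differences of Gli1, Gli2, Gli3 and Sufu in H7 against normal pancreas, and of Ptch1, Gli2 and Sufu in UNKC, turn positive with total counts as the scale.

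Gli1 (gene ID 14632), an activator whose transcription follows pathway activity, was lowest in UNKC tumours. Reads were 143 and 113 in H7, 15 and 8 in normal and 16 and 37 in UNKC libraries, and levels 2.07 and 1.45, 6.94 and 3.82, and 0.177 and 0.433 CPM. No 2 groups overlapped, with normal pancreas above H7 and H7 above UNKC tumours on the TMM scale. In UNKC tumours Gli1 fell by 4.14 ± 0.68 on the log2 scale against normal pancreas (edgeR adjusted p = 0.00386). With total counts as the scale that difference was -0.73 (adjusted p = 0.28). H7 tumours differed from normal pancreas by -1.62 ± 0.61 (edgeR adjusted p = 0.069). The latter was called with DESeq2 (-1.78, adjusted p = 0.016) and turned to 1.72 (edgeR adjusted p = 0.026) with total counts as the scale. H7 exceeded UNKC tumours by 2.52 ± 0.52 (edgeR adjusted p = 0.0244), a call lost without the first H7 library (0.17), the second H7 library (0.087) or the first UNKC library (0.11).

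Gli2 (gene ID 14633), the main activator downstream of Smo, went the other way between the tumours. Its levels were 0.304 and 0.334 CPM in H7, 0.842 and 1.29 in UNKC and 2.78 and 0.954 in normal libraries, the last from 6 and 2 reads. Both H7 libraries lay below all others, and UNKC and normal libraries overlapped. H7 tumours were lower than normal pancreas by -2.55 ± 0.78 (log2, SE, edgeR adjusted p = 0.0349) and lower than UNKC tumours by -1.73 ± 0.45 (edgeR adjusted p = 0.0473). Neither call held when libraries were left out. The first remained in 1 of 6 such fits and the second in 2 of 6, with adjusted p up to 0.29 and 0.28. With total counts as the scale H7 stood 0.79 above normal pancreas (adjusted p = 0.27). UNKC tumours and normal pancreas differed by -0.82 ± 0.69 (edgeR adjusted p = 0.37).

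Gli3 (gene ID 14634), which mainly yields the repressor form, passed the test in none of the 3 comparisons. Its levels were 9.70 and 6.61 CPM in H7, 10.3 and 11.3 in UNKC and 6.48 and 13.4 in normal libraries. The tumour groups did not overlap each other, but both lay within the range of the normal libraries. Differences were -0.28 ± 0.37 in H7 and 0.13 ± 0.37 in UNKC tumours against normal pancreas and -0.41 ± 0.32 between the tumours (log2, SE, edgeR adjusted p = 0.56, 0.79 and 0.45). The sign of the UNKC difference turned under 5 of its alternatives and that of the H7 difference under 2.

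Per kilobase of gene length, the order of mean levels in H7 tumours ran from Smo (17.5 ± 0.36 CPM per kb, SD, n = 2) and Ptch1 (8.58 ± 1.34) to Sufu, Gli3, Gli1, Gli2, Ihh and Hhip (0.00743 ± 0.00149). Sufu overlapped Gli3, and Ihh overlapped Hhip, and the other neighbours did not overlap. In UNKC tumours Smo (8.31 ± 0.52) was followed by Hhip (5.01 ± 0.35) and Ptch1 (2.26 ± 0.36), then Gli3, Sufu, Gli2, Gli1 and Ihh. Of these only Gli1 and Ihh overlapped. In normal pancreas Ptch1 (2.58 ± 1.52), Smo (2.19 ± 0.04), Sufu, Gli1 and Gli3 overlapped each neighbour, above Gli2 (0.278 ± 0.192), with no read of Hhip, Ihh or Shh. Hhip thus moved from the bottom of the order in H7 tumours, where it overlapped Ihh, to second in UNKC tumours.

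Levels of cell type markers also differed between the tumours. Of the 10 fibroblast markers, 3 (Pdgfra, Pdgfrb and Dcn) had the higher mean CPM in H7 and 7 (Col1a1, Col1a2, Col3a1, Lum, Dpt, Pdpn and Fap) in UNKC tumours, and edgeR called 3 higher and 1 lower in H7. Pdgfra and Pdgfrb, receptors that mark fibroblasts and pericytes and that mesenchymal cells in general express, were at 165 and 102 CPM and at 204 and 161 CPM in H7 libraries. They were at 23.3 and 40.8 CPM and at 29.8 and 38.7 CPM in UNKC libraries. The collagen Col1a1 was at 154 and 380 CPM in H7 and 533 and 1146 CPM in UNKC libraries, a difference that did not pass the test. Ductal and epithelial markers summed to 433 and 409 CPM in H7, 1195 and 995 in UNKC and 256 and 183 in normal libraries, with none of the 9 at 0. Nerve and Schwann cell markers summed to 25.2 and 33.0 CPM in H7, 119 and 139 in UNKC and 33.8 and 27.2 in normal libraries, with 1 of the 6 at 0 in the first H7 library and 3 and 2 in the normal libraries. Ncam1, an adhesion molecule that is not restricted to nerve, made up most of the UNKC sum, with 104 and 119 CPM against 1.32 and 6.08 in H7. The other 5 markers summed to 14.4 and 19.5 CPM in UNKC, 23.9 and 26.9 in H7 and 31.0 and 24.3 in normal libraries. The part of these cell types in the differences of Ptch1, Gli1 and Hhip was not tested. In the first and second UNKC libraries Hhip was at 47.8 and 43.2 CPM and muscle markers summed to 1.55 and 2130 CPM. The part of muscle cells in the level of Hhip was not tested either.

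By distance in centred log2 CPM over the 6 libraries, the genes most like Hhip were Slc5a7 (distance 1.39, 36.3 and 32.3 CPM in UNKC tumours), Klhl1 (1.43) and Gad2 (2.09). They encode a choline transporter, an actin-binding Kelch protein and a glutamate decarboxylase, all known from neurons. Each had at most 0.116 CPM in H7 and 0 in normal libraries, a likeness to Hhip that follows from how they were chosen. Most like Ptch1 were Zfpm2 (0.38), Lsp1 (0.60) and Sncg (0.62). Zfpm2, a GATA cofactor, had 25.3 and 21.4 CPM in H7 tumours and 5.86 and 7.66 in UNKC tumours. For Gli1 the nearest were Adgb (0.73), Smoc1 (0.77) and Ajm1 (0.85).

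The other genes of the pathway were read from 5 role lists of 54 genes, all of which passed the filter. Dhh and Foxf2 passed it only through the UNKC libraries, where they are high, so their calls are a description. In H7 tumours 24 were called higher and 10 lower than normal pancreas, that is 44.4% and 18.5% of the 54 beside 29.6% and 21.9% of all genes, with a median of 0.72. In UNKC tumours 22 were higher and 6 lower, or 40.7% and 11.1% beside 29.1% and 19.3% of all genes, with a median of 0.76. With total counts as the scale, the median gene moved up from 0.34 to 3.61 in H7 and from 0.42 to 3.77 in UNKC tumours. Such a shift leaves no rise able to turn sign. Of the falls, 5 of the 10 and 5 of the 6 turned, in each case the smaller ones, so the sign changes follow from the shift. Between H7 and UNKC tumours 7 were called higher and 11 lower, 13.0% and 20.4% of the 54 beside 7.14% and 11.1% of all genes, with a median of 0.03 and no sign change under any scaling. The 18 calls became 8 without the first H7, 9 without the second H7 and 10 without the first UNKC library. Of the 18, 8 held in each of the 6 fits that leave out a library: Dhh, Gas1, Evc, Evc2, Foxf1, Foxf2, Bmp4 and Wnt5a. Those 8 were singled out after their values were seen.

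Of the 7 genes of ligand processing and release, 4 were lower in H7 than in UNKC tumours and 0 higher, beside 11.1% and 7.14% of all genes. Dhh, which passed the filter only through the UNKC libraries, stayed called whichever library was left out. The calls of Hhat, Disp1 and Disp2 were lost without either H7 library or the first UNKC library. Dhh, the third mammalian Hedgehog ligand, had 608 and 564 reads in UNKC, 10 and 10 in H7 and 0 and 1 in normal libraries, or 6.73 and 6.60, 0.145 and 0.128, and 0 and 0.477 CPM. UNKC libraries stood apart from the rest. Dhh was 28.4 times its normal level in UNKC tumours (95% counting interval 2.54 to 562, edgeR log2 difference 4.81 ± 0.84, adjusted p = 0.00282), and H7 was lower than UNKC by -5.59 ± 0.45 (adjusted p = 0.000785). Disp2, of the Dispatched family that releases lipid-bearing ligand, was at 0.319 and 0.590 CPM in H7 and 5.45 and 1.85 in UNKC libraries (edgeR log2 difference -2.99 ± 0.71, adjusted p = 0.0373). Against normal pancreas, H7 tumours had lower Disp1 (-1.97 ± 0.56, edgeR adjusted p = 0.0273) and Disp2 (-3.35 ± 0.95, edgeR adjusted p = 0.0279), both from 20 normal reads, both above 0 with total counts as the scale (1.40 and 0.02) and both lost without the first normal or either H7 library (Disp1 also without the first UNKC library). In UNKC tumours 1 of the 7, Dhh, was called higher and 0 lower.

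Co-receptors split between the tumours, with 2 of 6 higher and 2 lower in H7 than in UNKC tumours, beside 7.14% and 11.1% of all genes. Gas1, a surface protein that helps Ptch1 bind ligand, was at 140 and 118 CPM in H7, 17.9 and 18.4 in UNKC and 3.70 and 8.59 in normal libraries. It rose in both tumours, by 4.39 ± 0.33 (edgeR adjusted p = 0.000276) in H7 and 1.57 ± 0.32 (edgeR adjusted p = 0.00927) in UNKC, and H7 exceeded UNKC by 2.83 ± 0.28 (edgeR adjusted p = 0.00231). Cdon, another co-receptor, was at 68.1 and 43.7 CPM in H7, 37.0 and 28.6 in normal and 16.8 and 18.4 in UNKC libraries. H7 exceeded UNKC by 1.67 ± 0.25 for Cdon (edgeR adjusted p = 0.00798, lost without the first H7 or first UNKC library) and normal pancreas by 0.77 ± 0.26 (edgeR adjusted p = 0.0465, lost in 5 of 6 fits without a library and with RLE or upper-quartile factors). Boc, related to Cdon, was at 16.2 and 15.3 CPM in normal, 0.391 and 0.796 in H7 and 1.75 and 3.44 in UNKC libraries. Boc fell by 4.72 ± 0.55 in H7 (edgeR adjusted p = 0.00102) and by 2.60 ± 0.50 in UNKC tumours (edgeR adjusted p = 0.00697), but with total counts as the scale neither call held (-1.41 in H7, edgeR adjusted p = 0.051, and 0.77 in UNKC, edgeR adjusted p = 0.21). H7 and UNKC differed in Boc by -2.12 ± 0.48 (edgeR adjusted p = 0.0316, lost without either H7 or the second UNKC library). Lrp2, an endocytic receptor that can bind Shh, was at 4.17 and 18.6 CPM in normal pancreas and lower in H7 (-7.49 ± 0.96, edgeR adjusted p = 0.00139) and UNKC tumours (-3.57 ± 0.75, edgeR adjusted p = 0.00953, lost without the second normal library and, at -0.31 with adjusted p = 0.73, with total counts as the scale).

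**Figure D3:**
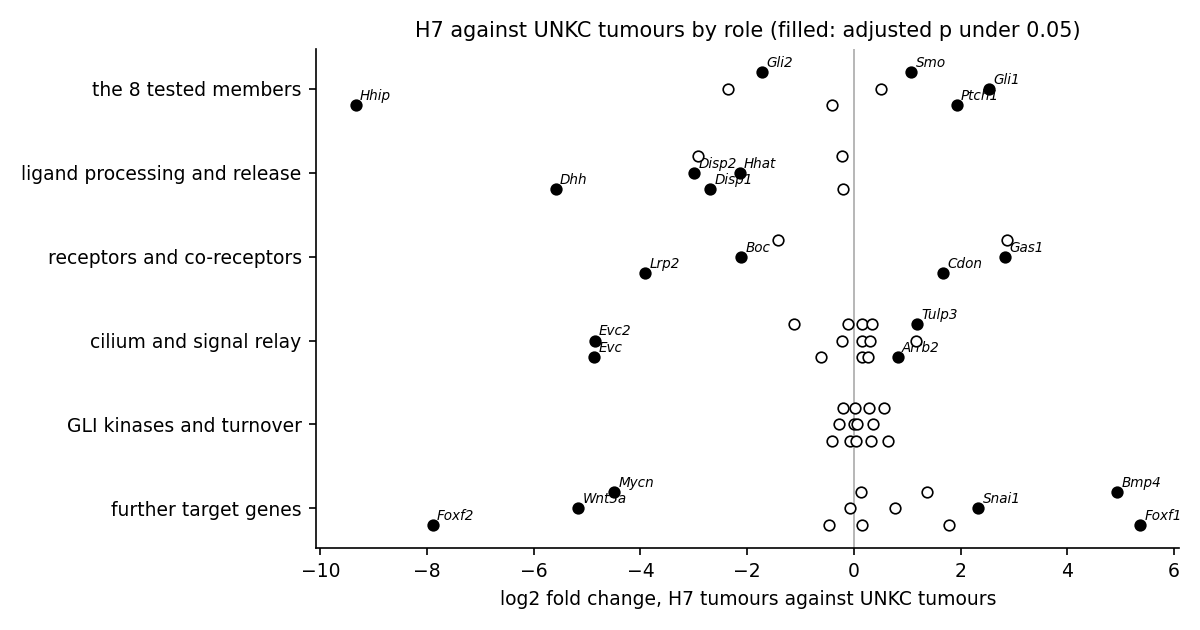
Log2 fold change of H7 against UNKC tumours (horizontal axis) for the 8 tested genes and the 54 other pathway genes by role list (vertical axis, points spread to avoid overlap), filled and named where the edgeR adjusted p was under 0.05. Ligand processing has 4 calls, all below 0, and GLI kinases and turnover has none. Of the former, Hhat, Disp1 and Disp2 were lost without either H7 library or the first UNKC library.

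Among 15 genes of the cilium and signal relay, the clearest contrast was Evc and Evc2, partner proteins at the base of the cilium that pass the signal from Smo. Evc was at 15.8 and 14.4 CPM in UNKC, 6.94 and 10.5 in normal and 0.275 and 0.745 in H7 libraries. Evc2 was at 14.2 and 14.5 CPM in UNKC, 6.48 and 7.63 in normal and 0.348 and 0.629 in H7 libraries. In both genes H7 lay below every other library and UNKC above. H7 was lower than UNKC by -4.87 ± 0.48 for Evc (edgeR adjusted p = 0.00235) and -4.86 ± 0.33 for Evc2 (edgeR adjusted p = 0.000963), and lower than normal pancreas by -4.08 ± 0.54 and -3.84 ± 0.38 (edgeR adjusted p = 0.00159 and 0.000608). With total counts as the scale neither differed from normal pancreas past the threshold (-0.81 and -0.55, edgeR adjusted p = 0.24 and 0.27). Evc and Evc2 are neighbouring genes on opposite strands, and the strand of the libraries is not given in the sources used here. Kif7, a kinesin that regulates Gli at the cilium tip, rose in H7 (6.84 ± 0.47 CPM, SD, against 0.463 ± 0.655 from 2 normal reads, edgeR adjusted p = 0.00593) and in UNKC tumours (3.04 ± 0.04 CPM, edgeR adjusted p = 0.0399, lost without any 1 tumour library and with RLE or upper-quartile factors). Tulp3, which carries receptors into the cilium, rose in H7 tumours by 2.56 ± 0.30 (edgeR adjusted p = 0.00104) and exceeded UNKC by 1.19 ± 0.23 (edgeR adjusted p = 0.0194, lost without any 1 tumour library and with total counts as the scale). In UNKC against normal pancreas the genes named besides Kif7 were Mosmo, which limits Smo at the surface, Arrb2, a Smo-binding arrestin, and Iqce, an Evc partner. They differed by 1.98 ± 0.30, -1.88 ± 0.18 and -1.70 ± 0.18 (edgeR adjusted p = 0.00272, 0.000579 and 0.000841). The falls of Arrb2 and Iqce turn to 1.51 and 1.66 with total counts as the scale. Arrb2 in H7 exceeded UNKC tumours by 0.82 ± 0.17 (edgeR adjusted p = 0.0246, lost without any 1 tumour library). In all, 6 of the 15 were higher and 4 lower in H7 and 6 higher and 2 lower in UNKC tumours than in normal pancreas, with 2 higher and 2 lower between the tumours. As shares, the H7 counts are 40.0% and 26.7%, beside 29.6% and 21.9% of all genes, the UNKC counts 40.0% and 13.3%, beside 29.1% and 19.3%, and those between the tumours 13.3% each way, beside 7.14% and 11.1%.

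None of the 13 genes of GLI kinases and turnover was called between the tumours. The most abundant, Csnk1a1, a kinase that phosphorylates both Smo and Gli, was at 121 and 123 CPM in H7 and 117 and 117 in UNKC libraries (log2 difference 0.06 ± 0.16, edgeR adjusted p = 0.85). Against normal pancreas 9 of the 13 were higher and 1 lower in H7, and 8 higher and 1 lower in UNKC tumours, beside 29.6% and 29.1% of all genes called higher and 21.9% and 19.3% called lower. Prkaca and Prkar1a, the catalytic and regulatory subunits of protein kinase A, rose by 1.90 ± 0.32 and 1.83 ± 0.31 in H7 tumours (edgeR adjusted p = 0.00393 and 0.00392). Prkar1a rose by 1.54 ± 0.31 in UNKC tumours (edgeR adjusted p = 0.0077), as did Fbxw11, a ubiquitin ligase subunit, by 1.80 ± 0.14 (edgeR adjusted p = 0.000303). The SE of Fbxw11, from 57 normal reads, is narrower than counting error. Ulk3, a Gli kinase, was lower by -1.65 ± 0.41 in H7 and -1.97 ± 0.42 in UNKC tumours (edgeR adjusted p = 0.0179 and 0.00992), signs that turned to 1.60 and 1.35 with total counts as the scale. The H7 call of Ulk3 was lost without the second H7 or second normal library and the UNKC call without the first UNKC library.

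Further target genes were divided between the tumours, with 3 of 13 higher and 3 lower in H7 than in UNKC tumours, beside 7.14% and 11.1% of all genes. Foxf1 and Foxf2 are forkhead factors of mesenchyme that Hedgehog signals induce in the gut. Foxf1 was at 9.40 and 11.7 CPM in H7, 0.366 and 0.141 in UNKC and 0 and 0.954 in normal libraries. Foxf2 was at 13.4 and 13.8 CPM in UNKC, 0.0869 and 0.0257 in H7 and 0.926 and 1.91 in normal libraries. The paralogs thus took opposite tumours, by 5.36 ± 0.59 for Foxf1 (edgeR adjusted p = 0.00174) and -7.90 ± 0.46 for Foxf2 (edgeR adjusted p = 0.000538) in H7 against UNKC. From 8 reads in H7, Foxf2 in UNKC was 250 times that in H7 tumours (95% counting interval 97.3 to 919). Foxf2 passed the filter only through the UNKC libraries. Against normal pancreas Foxf1 rose in H7 (22.6-fold, 95% counting interval 4.05 to 895, edgeR adjusted p = 0.0063), where Foxf2 fell by 4.63 ± 0.82 (edgeR adjusted p = 0.00415, but 0.14 with total counts as the scale). Foxf2 rose in UNKC tumours by 3.27 ± 0.49 (edgeR adjusted p = 0.00234). For Foxf2 against normal pancreas, 95% counting intervals were 3.79 to 153 times for the fall in H7 and 3.29 to 46.9 times for the rise in UNKC tumours. Bmp4, a secreted growth factor, was at 192 and 171 CPM in H7, 5.57 and 6.32 in UNKC and 2.78 and 1.91 in normal libraries, with H7 exceeding UNKC by 4.93 ± 0.18 (edgeR adjusted p = 0.000214) and normal pancreas by 6.27 ± 0.22 (edgeR adjusted p = 0.000102). The rise over normal pancreas, 76.9-fold from 10 normal reads, had a wider 95% counting interval of 33.0 to 237. Wnt5a, a secreted Wnt ligand, was at 35.2 and 24.1 CPM in UNKC, 0.406 and 1.23 in H7 and 1.85 and 4.77 in normal libraries (H7 against UNKC -5.17 ± 0.60, edgeR adjusted p = 0.00385). Ccnd1, the cell cycle regulator cyclin D1, rose by 3.52 ± 0.13 in H7 and 3.59 ± 0.13 in UNKC tumours (edgeR adjusted p = 0.000102 and 0.000105), with -0.08 ± 0.11 between them (edgeR adjusted p = 0.72). The SE of Ccnd1 against normal pancreas, from 93 normal reads, is narrower than counting error. Against normal pancreas 7 of the 13 targets were higher and 1 lower in H7 tumours, beside 29.6% and 21.9% of all genes. The counts in UNKC tumours were 6 higher and 0 lower, beside 29.1% and 19.3%.

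**Figure D4:**
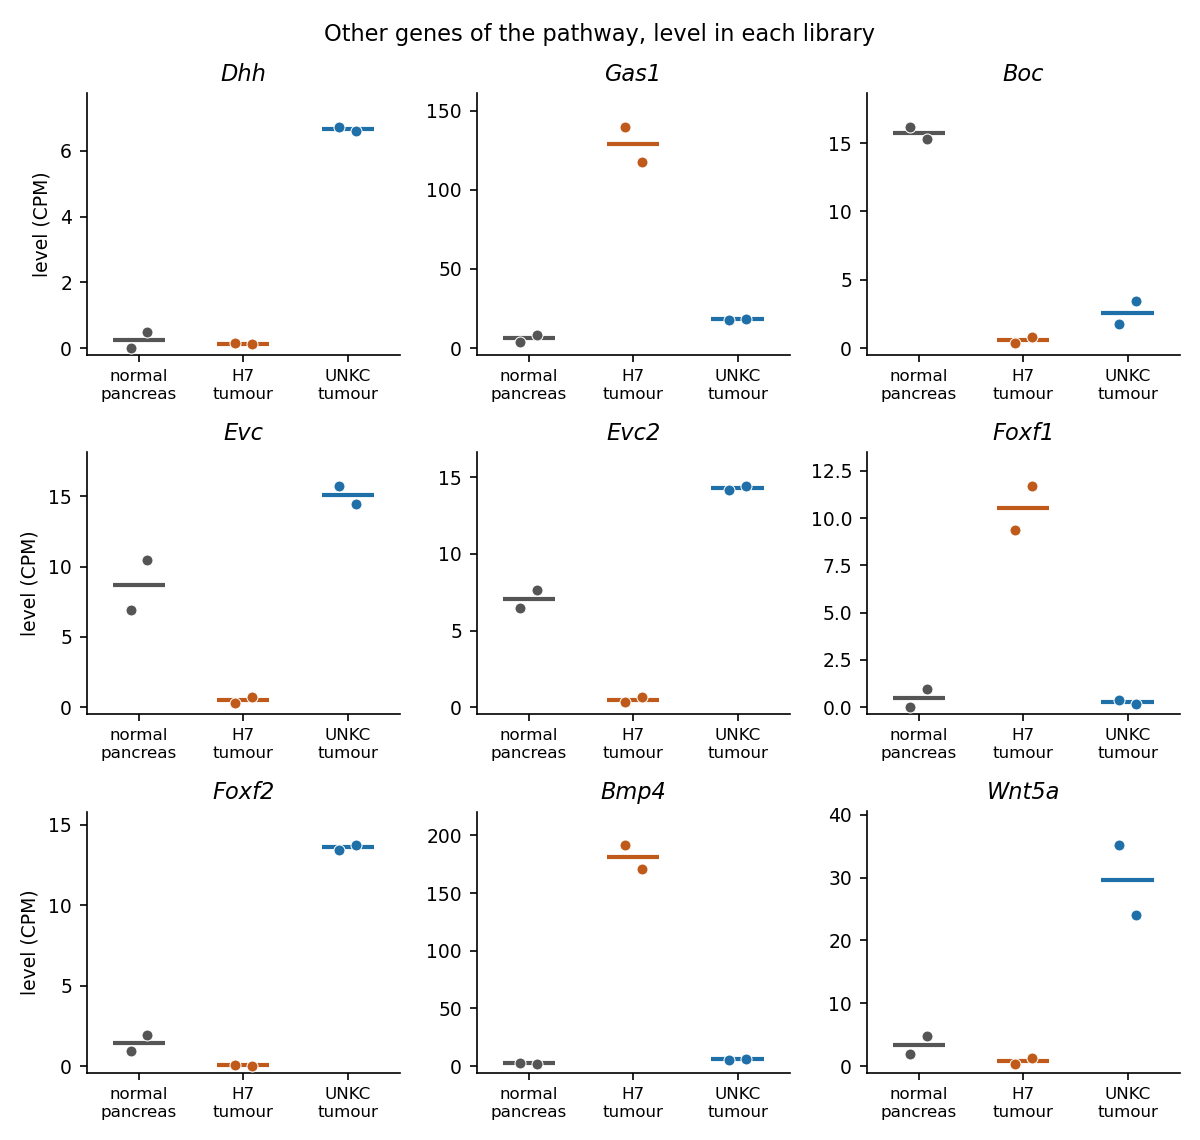
Level in CPM (vertical axis, linear from 0, a separate scale in each panel) by group of 9 other pathway genes among those named by the rule, picked for the plot after their values were seen, with points for the libraries and bars for means of n = 2. Gas1, Foxf1 and Bmp4 are high in H7 tumours (Bmp4 at 192 and 171 CPM), and Dhh, Evc, Evc2, Foxf2 and Wnt5a in UNKC tumours. Boc is highest in normal pancreas, an order that turns for UNKC tumours with total counts as the scale.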

How the data were processed

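RNA sequencing was analysed in 6 mouse libraries. Per the submitters' processing notes, which name STAR, featureCounts, DESeq2 1.18.1 and the build mm10, the authors aligned and counted the reads before testing, and annotation and strand are not given in the sources used here. The deposited per-sample values are raw counts for 27179 gene IDs, which hold both mates of a pair (median ratio to the tables' fragments 1.98 to 2.00). The authors' 2 comparison tables, deposited with fragment counts, TPM, log2 fold changes and p-values, gave gene names (16286, with 9355 from RefSeq and 1538 unnamed), lengths and the fragment counts of an alternative. Their own fold changes are not printed here.

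The 16306 genes kept by filterByExpr were tested as counts, with TMM scaling, in edgeR 4.0.16 (quasi-likelihood, legacy = FALSE, all 6 libraries, no block, Benjamini-Hochberg over all genes, threshold 0.05) in R 4.3.3. Tables and figures used Python 3.11.15, pandas 2.3.3, SciPy 1.17.1 and matplotlib 3.10.9. CPM are counts over the effective library size. A fold against a group without reads is a bound from 3 read pairs (6 reads) over that group, and a ratio whose lower group holds up to 5 pairs has a 95% exact counting interval, a range set to include the 5 pairs of Hhip in H7. Intervals and limits cover counting error only. The SE and p-values of edgeR come from reads with both mates of a pair counted. They can be narrower than counting error where the lower group holds few pairs. The SE was narrower for Smo, Fbxw11, Ccnd1 and Bmp4 against normal pancreas, among others.

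Members and lists were chosen with earlier results of these data known, and their tests support nothing independently. Named genes are all members and, per role list and comparison, up to 2 rises and 2 falls past the threshold whose higher group reached 1 CPM, or the most abundant gene where none passed, and the 3 genes nearest Hhip, Ptch1 and Gli1 (log2 CPM, prior count 2). Of the alternatives, 14 were set at the outset: other scalings, no filter, DESeq2 1.42.0, the 4 compared libraries, a replicate block, fragment counts and each library left out, where a lone sample borrows its spread from the other groups. Another 2 were chosen after seeing the data. They leave out ribosomal RNA, Lars2 and 1 unnamed gene, or both tumour libraries high in muscle genes. The fit was tested on simulated counts.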

Additional observations from a re-analysis of the deposited data

Results flagged for a closer look

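The difference between H7 and UNKC tumours in their change from normal pancreas passed edgeR's test for 5 of the Hedgehog genes, and because both share the same normal libraries it equals the direct difference between the tumours. In log2 units, H7 minus UNKC was 1.92 for Ptch1, -9.34 for Hhip, 1.08 for Smo, 2.52 for Gli1 and -1.73 for Gli2. Among other pathway genes H7 was higher by 1.67 for Cdon, 2.83 for Gas1, 1.19 for Tulp3, 0.82 for Arrb2, 5.36 for Foxf1, 4.93 for Bmp4 and 2.33 for Snai1. Values below 0 were -5.59 for Dhh, -2.14 for Hhat, -2.70 for Disp1, -2.99 for Disp2, -2.12 for Boc, -3.92 for Lrp2, -4.87 for Evc, -4.86 for Evc2, -4.50 for Mycn, -7.90 for Foxf2 and -5.17 for Wnt5a. Of these, Hhat, Disp1, Lrp2, Mycn and Snai1 lay outside the naming rule for this comparison.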

How the results depend on the processing

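Of 324 alternative log2 fold changes of the members, 267 kept their direction and side of the threshold. Without both tumour libraries high in muscle genes (1 residual degree of freedom, chosen after seeing the data), edgeR called 0 of 15969 genes, 0 members and 0 other pathway genes in every comparison, against 6134, 5904 and 2312 genes at an unadjusted p under 0.05 in H7 and UNKC against normal and between the tumours. Member differences between the tumours were then -9.61 for Hhip, 2.25 for Ptch1, 3.52 for Gli1, 1.04 for Smo and -1.46 for Gli2, and Sufu in H7 against normal was 0.10. With total counts as the scale, calls against normal were 13233 in H7 and 13810 in UNKC tumours (main 8400 and 7902), with 6 members each (main 3 each) and 48 other pathway genes in UNKC (main 28). That scale turned Sufu (3.18), Gli1 (1.72), Gli2 (0.79) and Gli3 (2.95) in H7 and Ptch1 (3.10), Sufu (2.76) and Gli2 (2.59) in UNKC tumours. Higher genes made up 57.5% of calls in H7 and 60.1% in UNKC against normal, 46.1% and 48.3% with upper-quartile factors and 96.0% and 97.7% with total counts. Between the tumours that share was 39.1%, and 50.3% with DESeq2. DESeq2 called 5213 genes between the tumours and the fit of the 4 compared libraries 4816 (main 2981). Gli3 in UNKC against normal turned to -0.068 (RLE factors), -0.23 (upper quartile), -0.054 (DESeq2) and -0.042 (fragment counts). With 1 library left out, calls ranged from 6196 to 9239 in H7 and 5706 to 8847 in UNKC against normal and from 561 (without the first H7 library) to 4635 between the tumours. Member calls then ranged from 1 to 3, stayed at 3 and ranged from 1 to 5, and other pathway calls from 25 to 40, 20 to 35 and 8 to 24. Ranges of the differences that turned were -0.69 to 0.84 (Sufu) and -0.69 to 0.37 (Gli3) in H7, and -0.67 to 0.62 (Ptch1), -1.20 to 0.33 (Sufu), -1.35 to 0.18 (Gli2) and -0.28 to 0.77 (Gli3) in UNKC. Deviations of same-numbered libraries correlated for H7 and UNKC (r = 0.53), whose second libraries were both high in muscle markers, but not for H7 and normal (-0.01) or normal and UNKC (-0.02), and the labels name nothing that a number shares, so the numbers were not taken to pair all samples. The replicate block moved Gli2 in H7 against normal to -2.56 (adjusted p = 0.062), leaving 2 members higher and 0 lower there, and the calls between the tumours to 3211 genes, 5 members and 20 other pathway genes. The cause of these shifts was not tested. Depth limits the normal libraries, with medians of 11 and 12 reads over the tested genes.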
